A study of Mus musculus with 12 samples.

Results

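The nuclear-encoded proteins of the mitochondrial respiratory chain were followed across 4 groups of mouse bone marrow cultures. Members were the probes of an Illumina BeadChip whose platform gene symbol starts with Nduf (complex I), Uqcr (complex III), Atp5 (ATP synthase) or Cox4 to Cox8 (complex IV), or is Sdha, Sdhb, Sdhc or Sdhd (complex II). Of 45281 probes, 135 matched these symbols. Of the 87 genes they name, 80 genes with 115 probes were kept because their detection p-value was under 0.05 on at least 3 of 12 arrays, as it was for 19274 probes of 10315 genes in all. Measured values entered this rule through detection alone.

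All cultures came from 3-month-old mice with a Bcor gene on the X chromosome whose exons 9 and 10 stand between loxP sites (Bcor Fl/Y), so the controls carried the floxed allele too. Marrow cells were grown with 20% serum, 50 ng/ml SCF, 25 ng/ml IL-6 and 10 ng/ml IL-3, infected with a retrovirus and selected with puromycin. The CD34+ Cre group (n = 3) held CD34+ cells sorted after infection with a virus expressing Cre recombinase, which excises the floxed exons, and the CD34+ control group (n = 3) held CD34+ cells after an empty virus. The BM Cre and BM control groups (n = 3 each) held unsorted bone marrow cells after the same pair of viruses. Each CD34+ group drew 2 arrays from marrow 2 and 1 array from marrow 4. The BM arrays are numbered as repeats 1 to 3, and no source says whether these were separate animals, so the p-values cover no more than the variation among these arrays, which may be technical.

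Complex I and complex II pass electrons from NADH and succinate to ubiquinone, complex III passes them on to cytochrome c, and complex IV hands them to oxygen. The proton gradient built on the way drives ATP synthase. Quiescent blood stem cells are known to rely largely on glycolysis, and the respiratory chain is more active in dividing and differentiating myeloid cells. Most subunits have a single gene that is used in every tissue, while a few complex IV subunits exist as isoforms, such as Cox7a1 and Cox6a2 in heart and skeletal muscle and Cox6b2 in testis.

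Of the 135 matching probes, 105 were detected on all 12 arrays, as were 12794 of all 45281 probes, and the 20 that were not kept were detected on fewer than 3. Between 34.4% and 39.2% of all probes were detected per array. The probe ILMN_1228091 of Bcor, the targeted gene, read 8.42, 8.54 and 8.83 in BM Cre cells and 9.52, 9.86 and 9.87 in BM control cells (log2 normalised intensity, the scale of all levels below). In CD34+ Cre cells it read 8.93, 9.08 and 9.95, against 9.80, 9.69 and 9.91 in CD34+ control cells, so that the CD34+ Cre array of marrow 4 stood with the controls. Whether this probe lies in the excised exons was not checked. Cd34 itself averaged 10.06 ± 0.49 in CD34+ Cre and 10.26 ± 0.19 in CD34+ control cells (SD, n = 3 each). In BM cells it fell to 9.05 ± 0.38 with Cre, against 10.17 ± 0.15 in BM control cells (adjusted p = 0.00922 in limma), and CD34+ control and BM control cells differed by 0.09 (adjusted p = 0.819). All 6 mast cell and basophil markers were detected on every array.

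Few respiratory chain probes changed with Cre in BM cells. Of 115 probes, 2 passed an adjusted p of 0.05 in limma (1.74%), against 14.0% of all kept probes in the same comparison. One rose (7.09% of all kept probes did) and 1 fell (6.95%). An unadjusted p under 0.05 was found for 11, and for 5211 of all 19274 kept probes. The median log2 change was 0.11 over the members and -0.07 over all kept probes. For 105 of the 115 probes (91.3%) the 95% interval of the change lay within 1 log2 unit of 0, and for 43 (37.4%) within 0.5. Over all kept probes the shares were 68.5% and 15.1%. With the repeat numbers and marrow numbers as a block, 5 probes passed, 3 up and 2 down, against 22.1% of all kept probes. Without BM control array 3, BM Cre array 1 or BM Cre array 2 no member passed, and without BM control array 1 or 2 a single one did. The count was 4 without BM Cre array 3, 7 without the CD34+ Cre array of marrow 4 and 14 without both marrow 4 arrays, and in each of these fits the members' share stayed below that of all kept probes.

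Cox7a1, the heart and muscle isoform of complex IV subunit 7A, was the member that fell. Its level was 7.50, 7.04 and 7.97 in BM Cre cells and 8.67, 8.87 and 8.68 in BM control cells. All 3 Cre arrays lay below all 3 controls. The fall was -1.23 ± 0.31 (log2, SE), to 42.5% of the control intensity, with an adjusted p of 0.0181 in limma. Leaving out BM control array 2, BM control array 3, BM Cre array 1 or BM Cre array 2 put the adjusted p between 0.0525 and 0.0819, and the authors' deposited table gave 0.101; the sign was the same throughout. The 8 granulocyte markers rose in the same comparison. Their summed level was 17.38 to 17.66 in BM Cre cells, with 8 of 8 genes detected on all 3 arrays, and 12.83 to 13.44 in BM control cells, with 4 of 8, where Elane and Prtn3 were detected on none. Their part in the Cox7a1 result was not tested. In a bulk sample, fewer cells that express a gene and less of its RNA per cell cannot be told apart.

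The widely used isoform of the same subunit, Cox7a2, went the other way without passing the test. It read 10.08, 10.33 and 10.03 in BM Cre cells and 9.56, 10.08 and 9.86 in BM control cells, a change of 0.31 ± 0.23 (log2, SE) with overlapping groups and an adjusted p of 0.426 in limma. The promoters of both genes are shown for comparison, together with that of Atp5k, the member with the smallest p in BM cells among those whose 250 bases hold the palindromic binding motif of nuclear respiratory factor 1 (NRF-1), a regulator of many respiratory chain genes. Each sequence is the 250 bases before the start site (RefSeq, build GRCm38.p6), 5′ to 3′ on the gene's strand, with motif matches in capitals.
Cox7a1 (chr7:30183921-30184170, plus strand): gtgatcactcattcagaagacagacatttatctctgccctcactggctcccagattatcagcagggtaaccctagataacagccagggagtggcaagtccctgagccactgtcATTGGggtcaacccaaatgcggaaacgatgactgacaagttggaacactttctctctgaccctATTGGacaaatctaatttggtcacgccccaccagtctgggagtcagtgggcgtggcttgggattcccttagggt
Cox7a2 (chr9:79759854-79760103, minus strand): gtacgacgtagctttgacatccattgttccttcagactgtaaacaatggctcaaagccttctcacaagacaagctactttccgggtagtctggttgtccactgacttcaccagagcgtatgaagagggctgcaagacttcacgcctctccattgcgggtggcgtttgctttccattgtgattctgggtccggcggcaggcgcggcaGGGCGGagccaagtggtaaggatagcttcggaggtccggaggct
Atp5k (chr5:108434400-108434649, minus strand): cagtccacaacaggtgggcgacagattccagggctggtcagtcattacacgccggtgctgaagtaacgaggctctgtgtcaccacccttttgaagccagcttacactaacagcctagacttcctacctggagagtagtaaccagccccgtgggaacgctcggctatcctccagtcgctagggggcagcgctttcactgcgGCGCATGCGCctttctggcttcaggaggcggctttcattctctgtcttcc
The capitals mark the CCAAT box (CCAAT, here as its reverse complement) at 137 and 74 bases before the start of Cox7a1, the GC box GGGCGG at 44 bases before that of Cox7a2, and the NRF-1 palindrome at 50 bases before that of Atp5k. 

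Promoter windows, from 250 bases before to 50 after the start, were found for 69 of the 80 genes, 5 of them with more than 1 window. The motifs were searched on both strands, and a gene counted once if any window held the letters. The NRF-1 palindrome, a GCGC on each side of AT, was in 7 of the 69 genes (10.1%) and in 1.1% of the 27025 genes of the table. The looser form with any 2 bases between both GCGC, which contains the palindrome, was in 19 of 69 (27.5%) against 7.0%. The ETS core CCGGAAG was in 18 of 69 (26.1%) against 9.9%, and the YY1 core AAGATGGC in 11 of 69 (15.9%) against 3.2%. The TATA box TATAAA was in 6 of 69 (8.7%) against 15.7%, while CCAAT (43.5% against 41.1%) and GGGCGG (49.3% against 38.2%) stood closer to the table as a whole. These matches describe letters and do not show binding.

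The probe that rose was that of Ndufs5-ps, an annotated pseudogene of the complex I accessory subunit Ndufs5. It read 11.61, 11.79 and 11.56 in BM Cre cells and 10.90, 11.32 and 11.08 in BM control cells. All Cre arrays lay above all controls. The rise was 0.55 ± 0.15 (log2, SE), or 1.47-fold, with an adjusted p of 0.0303 in limma. Ndufs5 itself was not analysed here, and signal of its mRNA on the pseudogene's probe cannot be told apart from that of the pseudogene. Without BM control array 1, BM control array 3, BM Cre array 1 or BM Cre array 2 the adjusted p was 0.0748 to 0.127, and the call was also lost with median scaling (0.074), without the detection filter (0.0625), without the intensity trend (0.0506), with the repeats of marrow 2 averaged (0.056) and in the authors' deposited table (0.274).

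**Figure D1:**
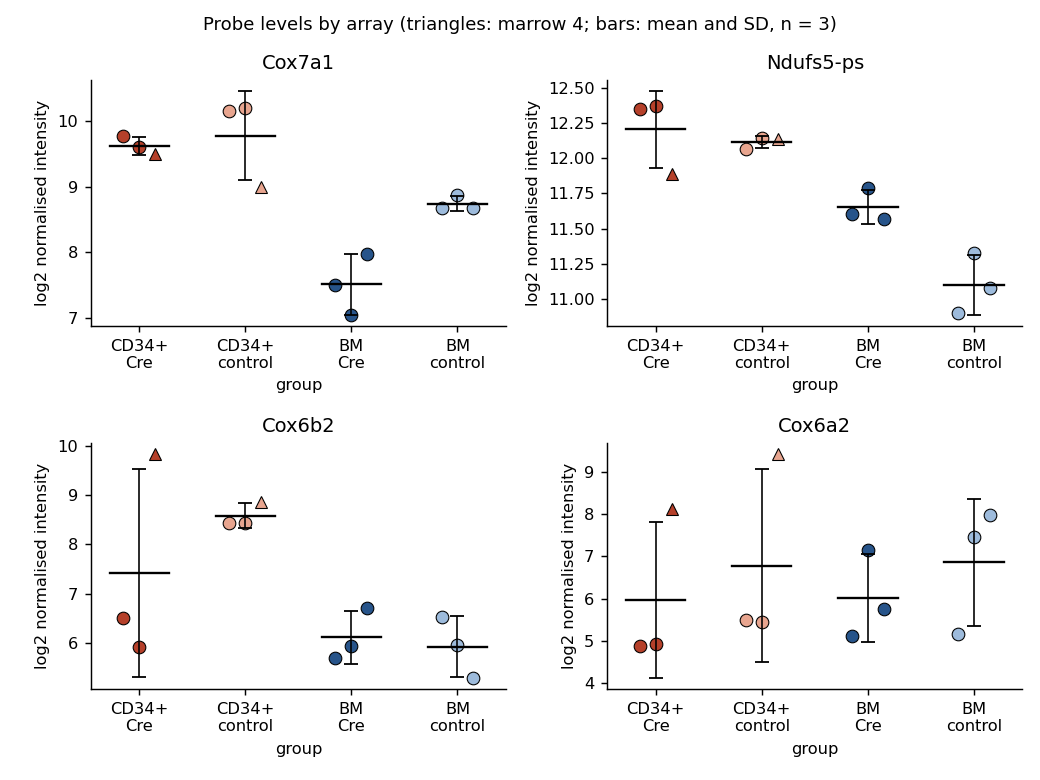
Levels (log2 normalised intensity) of Cox7a1, Ndufs5-ps, Cox6b2 and Cox6a2 on each of 12 arrays, with group mean and SD (n = 3) and triangles for the arrays of marrow 4. BM Cre lies below BM control for Cox7a1 and above it for Ndufs5-ps, and the marrow 4 arrays read 9.82 and 8.11 in CD34+ Cre for Cox6b2 and Cox6a2, above both marrow 2 arrays of that group.

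No probe of complex I, II or III, of ATP synthase or of the ubiquitous complex IV subunits passed the test in BM cells, apart from the pseudogene. Complex I core subunits, which carry the flavin and the iron-sulphur clusters, had positive changes on 5 of 5 probes (median 0.18), beside 42.2% of all kept probes with a positive change, and 3 of them had all Cre arrays above all controls, beside 15.8% of all kept probes. Ndufs7, a core subunit near the ubiquinone site, read 12.88, 13.03 and 12.81 in BM Cre and 12.59, 12.65 and 12.68 in BM control cells. That change of 0.27 ± 0.13 (log2, SE) had an adjusted p of 0.209 in limma.

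The complex I accessory subunits, which surround the core, had a median change of 0.18 on 46 probes, 36 of them positive and none past the threshold. Their smallest p was that of Ndufa13, also known as the cell death regulator GRIM-19, which read 14.36, 14.29 and 14.35 in BM Cre and 14.44, 14.68 and 14.62 in BM control cells (log2 change -0.25, adjusted p = 0.123 in limma). Its groups did not overlap, with Cre lower. The 9 probes of complex I assembly factors (Ndufaf genes), which build the complex and are not part of it, ran from -0.26 to 0.08 with a median of -0.12. The lowest was Ndufaf7, a methyltransferase that acts on a core subunit (adjusted p = 0.495 in limma).

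In complex II, Sdhd, a membrane anchor of succinate dehydrogenase, read 10.70, 10.67 and 10.54 in BM Cre and 10.26, 10.10 and 10.44 in BM control cells. The groups did not overlap, and the change of 0.37 ± 0.14 (log2, SE) had an adjusted p of 0.115 in limma. The probes of Sdhb, the iron-sulphur subunit, and Sdhc, the other anchor, changed by -0.24 to -0.02. Sdha, the flavoprotein, was detected on no array.

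In complex III, Uqcrc2, a core protein, read 13.35, 13.41 and 13.26 in BM Cre and 13.01, 13.07 and 13.03 in BM control cells, with no overlap. Its change of 0.30 ± 0.10 (log2, SE) had the smallest p of the complex (adjusted p = 0.0647 in limma). Uqcrq, a small subunit, averaged lower in Cre cells of both kinds. It read 8.12, 8.69 and 7.88 in BM Cre and 8.60, 9.22 and 8.72 in BM control cells, and these groups overlapped. The change of -0.62 had an adjusted p of 0.14 in limma, and of 0.0111 with the replicate block. That block pairs BM Cre and BM control arrays by repeat number, and no label says that arrays of the same number share a source.

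Among the 12 probes of ubiquitous complex IV subunits, 11 changes were positive (median 0.09). The smallest p was that of Ndufa4, a subunit first described in complex I and later placed in complex IV, which read 13.81, 13.98 and 13.70 in BM Cre and 13.43, 13.39 and 13.34 in BM control cells. All Cre arrays lay above all controls (log2 change 0.45, adjusted p = 0.132 in limma, and 0.00648 with the replicate block). In ATP synthase, the 6 probes of the catalytic F1 part had a median change of 0.10 and the 19 of the membrane part and stalk one of -0.03. Atp5k, a membrane subunit, read 7.24, 7.63 and 7.49 in BM Cre and 6.85, 6.96 and 6.75 in BM control cells, again without overlap (log2 change 0.60, adjusted p = 0.106 in limma).

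**Figure D2:**
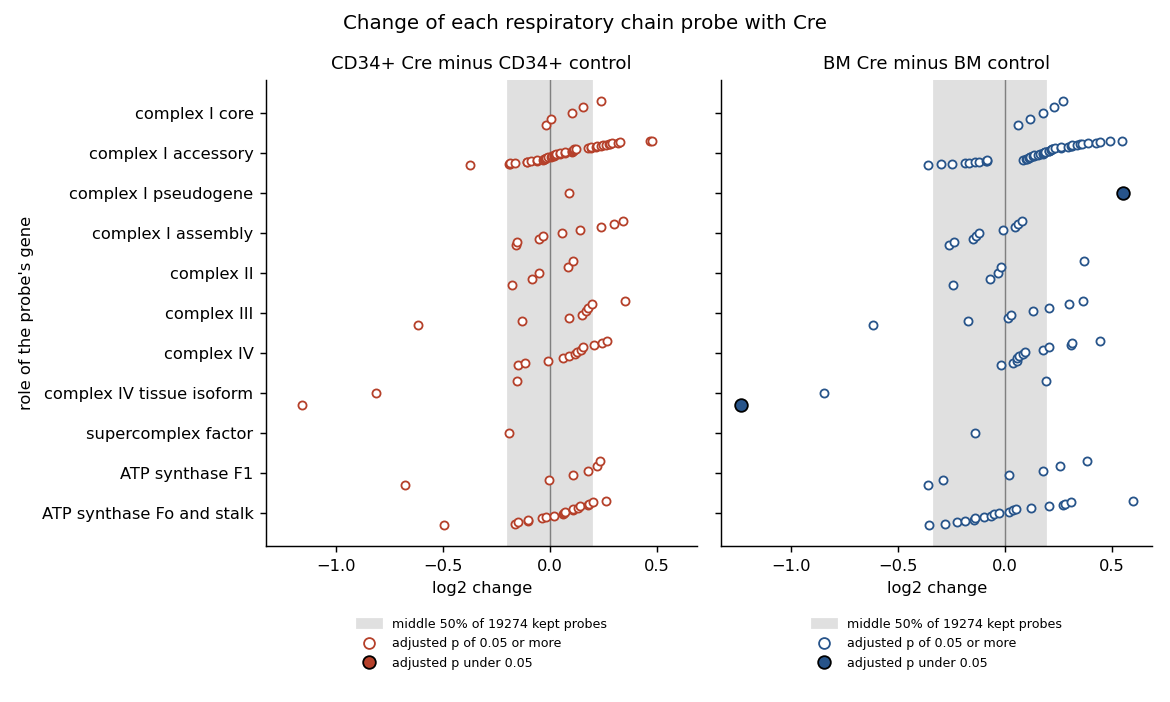
Change with Cre (log2) of each of 115 probes, by role, in CD34+ cells (left) and BM cells (right); filled points passed an adjusted p of 0.05 and the grey band holds the middle 50% of all kept probes. Filled points appear only for Cox7a1 (-1.23) and Ndufs5-ps (0.55) in BM cells.

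The changes in BM cells leaned upward as small shifts. On 29 of the 115 probes all 3 Cre arrays lay above all 3 controls, against 15.8% of all kept probes, and on 7 all lay below, against 22.9%. The median deviation of the 115 probes from their own 12-array means was -0.06, 0.06 and -0.07 on the BM Cre arrays and -0.21, -0.08 and -0.20 on the BM control arrays. Every Cre array was above every control array on this measure. The markers of dividing cells had a summed level of 13.93, 14.10 and 13.51 on the same Cre arrays and 13.53, 13.49 and 13.51 on the controls, and the groups overlapped. Other markers separated the groups. The sums were higher in BM Cre cells for granulocytes (given above), for 3 erythroid markers (9.18 to 10.51, against 7.68 to 8.11 in BM control cells) and for 4 monocyte markers (13.60 to 13.92, against 11.09 to 13.48). They were lower for 4 megakaryocyte markers (11.98 to 12.74, against 12.80 to 13.38) and for 3 progenitor markers (15.32 to 15.84, against 16.07 to 16.36). The erythroid, monocyte and megakaryocyte markers were all detected on all BM arrays, and the part of any of these cells in the shift was not tested. Among the 70 members with a mean level of 11 or more the median change was 0.13, beside -0.06 over the 2665 kept probes at that level.

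**Figure D3:**
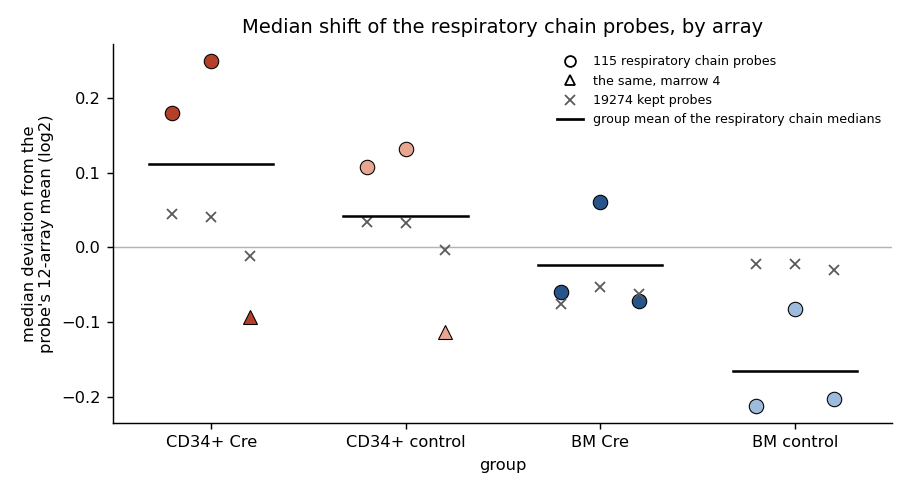
Median deviation (log2) of the 115 respiratory chain probes (coloured) and of all kept probes (crosses) from each probe's mean over 12 arrays, 1 point per array; bars are group means and triangles the arrays of marrow 4. The BM Cre arrays stand at -0.07 to 0.06 and the BM control arrays at -0.21 to -0.08, while the marrow 4 arrays stand at -0.09 (CD34+ Cre) and -0.11 (CD34+ control), below the 4 arrays of marrow 2.

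In sorted CD34+ cells no respiratory chain probe passed the test with Cre. The count was 0 of 115 in limma, against 0.617% of all kept probes. An unadjusted p under 0.05 was found for 2, and for 2275 of all 19274 kept probes. The smallest adjusted p was 0.351, that of the complex I accessory subunit Ndufb5, which read 10.11, 9.99 and 9.31 in CD34+ Cre and 9.32, 9.40 and 9.28 in CD34+ control cells. The CD34+ Cre arrays of marrow 2 were high, and that of marrow 4 lay among the controls. The median change was 0.07 over the members and 0.01 over all kept probes. The 95% interval lay within 1 log2 unit of 0 for 107 members (93.0%) and within 0.5 for 56 (48.7%). Over all kept probes the shares were 77.6% and 20.9%.

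A single member lay above all controls on all 3 Cre arrays (7.17% of all kept probes did), and a single one lay below (6.72%). The first was Ndufs3, a core subunit of complex I, at 11.73, 11.69 and 11.47 in CD34+ Cre and 11.44, 11.41 and 11.33 in CD34+ control cells (log2 change 0.24, adjusted p = 0.478 in limma). The other was Uqcrq, at 9.18, 9.17 and 9.70 in CD34+ Cre and 9.80, 9.79 and 10.30 in CD34+ control cells, a change of -0.62 ± 0.26 (log2, SE) with an adjusted p of 0.368 in limma. Within marrow 2 Uqcrq differed by -0.63 and within marrow 4 by -0.60.

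For most members the sign differed between the marrows. Cre minus control had a median of 0.14 over the 115 probes in marrow 2 and of -0.04 in marrow 4, and the sign was shared by 41 probes (35.7%), beside 49.6% of all kept probes. Marrow 4 has 1 array per group, so its differences have no replicate check. The median deviations of the members were 0.18 and 0.25 on the marrow 2 arrays of CD34+ Cre cells and 0.11 and 0.13 on those of CD34+ control cells, while the marrow 4 arrays stood at -0.09 and -0.11. The dividing-cell markers ran alongside, at 13.83 and 13.76 in CD34+ Cre and 13.25 and 13.30 in CD34+ control cells of marrow 2, and at 12.11 and 12.27 in those of marrow 4. Their part in the result was not tested.

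Without the CD34+ Cre array of marrow 4, whose Bcor level was that of a control, 7 members passed (6 up and 1 down), against 9.42% of all kept probes. Without both marrow 4 arrays, 3 passed (2 up and 1 down), against 10.7%. The first fit leaves only repeats of marrow 2 in the CD34+ Cre group, and the second only these in both CD34+ groups. Calls of the second fit therefore cover variation between repeats of 1 marrow and not between marrows. The 3 were Ndufb5 (log2 change 0.69), Uqcrc1, a core protein of complex III (0.47), and Cox6b2 (-2.21).

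Cox6b2, the testis isoform of complex IV subunit 6B, showed the widest split. It read 6.52, 5.93 and 9.82 in CD34+ Cre and 8.43, 8.44 and 8.87 in CD34+ control cells. The Cre arrays of marrow 2 were the lowest of these 6 and that of marrow 4 was the highest. Over both marrows the change was -1.16 ± 0.77 (log2, SE), with a 95% interval from -2.82 to 0.51 and an adjusted p of 0.582 in limma. Within marrow 2 it was -2.21 and within marrow 4 it was 0.96.

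Cox6a2, the muscle isoform of subunit 6A, split by marrow in CD34+ cells. It read 4.87, 4.93 and 8.11 in CD34+ Cre and 5.48, 5.44 and 9.42 in CD34+ control cells, and was detected in marrow 4 alone among these arrays. In BM cells it read 5.12, 7.16 and 5.76 with Cre and 5.16, 7.46 and 7.98 without, with detection on 2 arrays of each group. Neither comparison passed the test, and the intervals of both reached beyond 3 log2 units below 0.

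**Figure D4:**
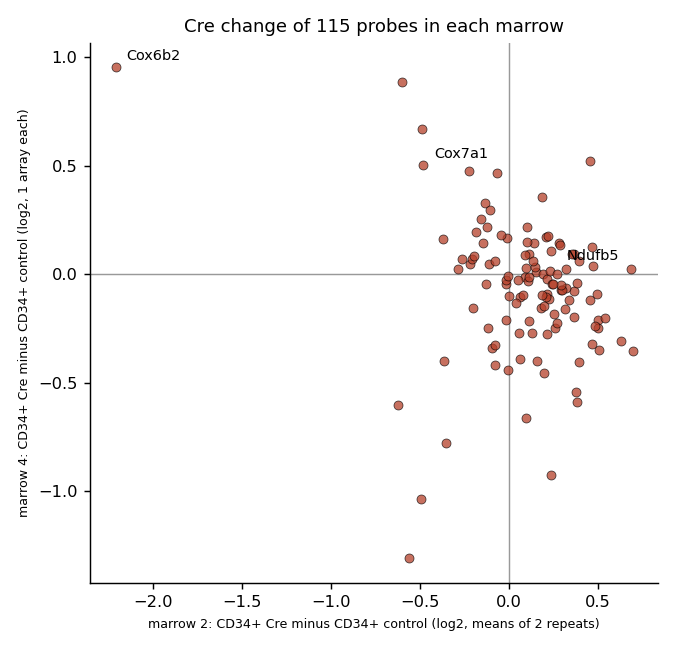
Cre minus control (log2) of each of 115 probes in CD34+ cells of marrow 2 (horizontal axis, 2 arrays per group) and marrow 4 (vertical axis, 1 array per group). Cox6b2 lies apart at -2.21 in marrow 2 and 0.96 in marrow 4, and 41 of the 115 points share the sign of both axes.

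The Cre effects of CD34+ and BM cells were compared directly as the difference of both changes (CD34+ minus BM). No member passed that test in limma, against 4.75% of all kept probes. An unadjusted p under 0.05 was found for 3026 of all 19274 kept probes and for 2 members. These were Cox7a1 and Sdhd. For Cox7a1 the log2 change was -0.15 in CD34+ and -1.23 in BM cells, a difference of 1.08 ± 0.44 (SE) with a 95% interval from 0.13 to 2.03 and an adjusted p of 0.237. For Ndufs5-ps the changes were 0.09 and 0.55, with a difference of -0.46 and an adjusted p of 0.329.

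CD34+ cells and BM cells differed at many members, in both directions. In the control cells 59 of 115 probes passed (51.3%), 35 higher and 24 lower in CD34+, against 39.9% of all kept probes in limma (20.4% higher and 19.5% lower). In the Cre cells 58 passed (50.4%), 33 higher and 25 lower, against 49.1% (27.0% higher and 22.2% lower). The median difference of members was 0.25 in control cells and 0.18 in Cre cells, beside 0.05 and 0.12 over all kept probes. The split into higher and lower differed between ways of processing the arrays. Scaling by the median instead of quantiles moved the median of all probes to 0.30 and 0.37 and gave 65 higher and 22 lower in control cells, and 68 and 22 in Cre cells. The authors' deposited table gave 13 higher and 24 lower, and 13 and 25. Markers of other cell types also differed in this contrast, and not all in the same direction. The summed level of 4 monocyte and macrophage markers was 8.81 to 9.14 in CD34+ control cells, with Cd14 on no array, and 11.09 to 13.48 in BM control cells, with all 4 on every array. Pf4 and Ppbp of 4 megakaryocyte markers and Klf1 of 3 erythroid markers were detected on no CD34+ array and on every BM array. Of 8 granulocyte markers, 7 were detected on no CD34+ control array, and Elane and Prtn3 on no BM control array. The summed granulocyte level was still higher in CD34+ control cells, at 14.03 to 15.04, against 12.83 to 13.44 in BM control cells. The remaining marker, Ctsg, averaged 14.614 in CD34+ control and 12.095 in BM control cells. The part of these cells in the differences was not tested. The array slide and scan day are not given in the sources used here, so a batch and the cell population cannot be told apart.

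Some population differences were seen with every kept probe of a gene. Both probes of Ndufa3, a complex I accessory subunit, were higher in CD34+ control than in BM control cells. The first read 13.17, 13.11 and 12.55 in CD34+ control and 11.79, 12.04 and 11.86 in BM control cells, a difference of 1.05 ± 0.16 (log2, SE; adjusted p = 0.000229 in limma), and the second differed by 0.78. The groups did not overlap on either probe. The same held in direction and call for Cox6b1, the ubiquitous subunit 6B (0.87 and 0.47), Cox6a1, the ubiquitous subunit 6A (0.52 and 0.42), and Uqcr10, a small complex III subunit (0.46 and 0.40). The Cox6a1 calls were lost in 7 of 23 alternatives on the first probe (adjusted p up to 0.225 in limma) and in 11 of 24 on the second (up to 0.4), while those of Ndufa3 held in all 23 and 24.

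Other differences were seen with 1 probe and not with another of the same gene. Of 26 genes with at least 2 kept probes, 20 had a called probe in the control cells, beside 2654 of 4037 other genes with several probes. Probes called in opposite directions were found for 4 of the 26 (15.4%, beside 8.67% of the other genes). Probes more than 1 log2 unit apart were found for 9 (34.6%, beside 35.7%). In the Cre comparisons none of the 26 had such a spread, which was also rare among the other genes (2.33% in CD34+ and 3.79% in BM cells). The median spread of the 26 was 0.14 in both, beside 0.24 and 0.20 for the other genes.

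Atp5a1, the alpha subunit of ATP synthase, had the widest spread, 4.23. The probe ILMN_2633229 read 9.59, 9.12 and 9.80 in CD34+ control and 12.53, 12.21 and 12.53 in BM control cells, a difference of -2.92 ± 0.19 (log2, SE; adjusted p = 9.18e-07 in limma). The probe ILMN_2570875 read 7.83, 7.91 and 8.98 in CD34+ control and 6.94, 7.19 and 6.65 in BM control cells, a difference of 1.31 ± 0.36 (adjusted p = 0.0112, and 0.119 in the authors' deposited table). Neither pair of groups overlapped, and the directions were opposite.

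The same pattern was found in complex I. The accessory subunit Ndufa5 differed by -2.82 on one probe (adjusted p = 3.59e-06 in limma) and by 0.42 on the other (adjusted p = 0.155). Ndufc2 was higher in CD34+ control cells by 0.57 on the probe ILMN_2976591 (adjusted p = 0.0142). Its probe ILMN_1251341 was detected on all BM arrays and no CD34+ array and was at least 3.57-fold lower in CD34+ control cells, a bound set against the lowest detected signal of each array. That probe passed the detection filter through the BM arrays alone, so the filter itself favours a difference in this direction. In 1 of 22 alternatives its difference was 0 and was not called. Ndufs4 was lower in CD34+ control cells on 3 of 4 probes, by -1.82, -1.31 and -1.29, and the fourth differed by 0.17 (adjusted p = 0.482).

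Several of the lowest values belonged to genes with a single kept probe, for which no such check exists. The ATP synthase subunit Atp5md read 5.08, 6.76 and 6.11 in CD34+ control and 8.59, 8.78 and 8.85 in BM control cells (log2 difference -2.75, adjusted p = 5.35e-05 in limma). Ndufb4, a complex I accessory subunit, differed by -2.55 and Sdhd by -2.02. The groups did not overlap for any of the 3.

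**Figure D5:**
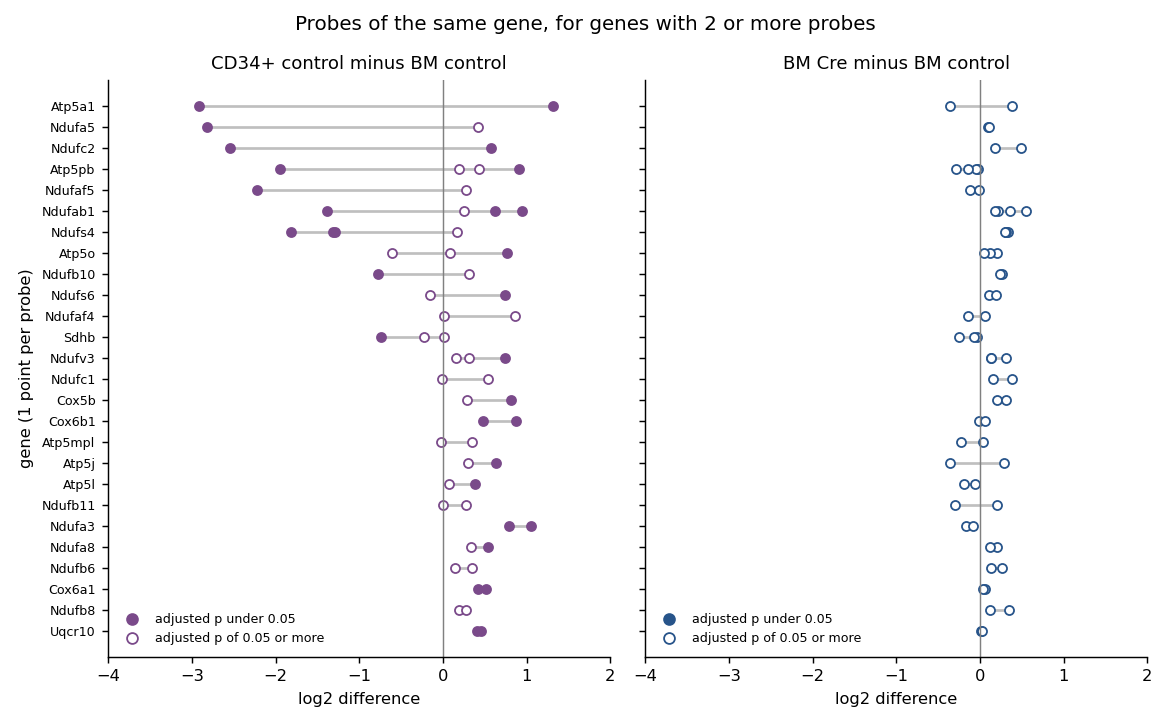
Log2 difference of each kept probe of the 26 genes with at least 2 kept probes, for CD34+ control minus BM control (left) and BM Cre minus BM control (right), 1 row per gene in order of spread and filled where the adjusted p was under 0.05. Probes of one gene are up to 4.23 apart (Atp5a1) on the left and at most 0.75 apart on the right.

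The muscle isoform Cox7a1 and the testis isoform Cox6b2 were among the members higher in CD34+ control cells. Cox7a1 read 10.15, 10.20 and 8.99 in CD34+ control and 8.67, 8.87 and 8.68 in BM control cells, a difference of 1.04 ± 0.31 (log2, SE; adjusted p = 0.0173 in limma), and the groups did not overlap. In Cre cells the difference was 2.12 (adjusted p = 0.000137). Cox6b2 read 8.43, 8.44 and 8.87 in CD34+ control and 6.53, 5.96 and 5.30 in BM control cells, also without overlap (2.65 ± 0.77, adjusted p = 0.0157). In Cre cells Cox6b2 did not pass, nor did it in 22 of 23 alternatives. Its log2 difference there ran from 0.10 to 2.05 over these alternatives. A second Cox6b2 probe, ILMN_1229627, was detected on 1 BM control array alone and was not kept. It averaged 4.925 in CD34+ control and 5.09 in BM control cells, so it could not check the first. Without CD34+ control array 1 or 2 of marrow 2, or BM control array 1 or 3, the adjusted p of Cox7a1 in the control cells was 0.0524 to 0.0788. It was also above 0.05 with marrow as a random block (0.0594), with the repeats of marrow 2 averaged (0.0962) and in the authors' deposited table (0.114). For Cox6b2 it was 0.0645 without BM control array 3 and 0.0777 in the authors' deposited table.

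Other mitochondrial gene lists gave context for the Cre comparisons. In CD34+ cells none of their probes passed. In BM cells 4 of 27 probes of electron carriers (14.8%) and 3 of 27 of the citric acid cycle and pyruvate dehydrogenase (11.1%) rose and none fell. Of all kept probes 14.0% passed, with 7.09% higher and 6.95% lower. Etfb, a subunit of the flavoprotein that feeds electrons from fatty acid oxidation into the chain, read 12.17, 12.29 and 12.07 in BM Cre and 11.25, 11.33 and 11.29 in BM control cells (log2 change 0.89, adjusted p = 0.000632 in limma). Its second probe rose by 0.81.

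Pdha1, the subunit of pyruvate dehydrogenase that links glycolysis to the citric acid cycle, read 11.56, 11.82 and 11.65 in BM Cre and 10.95, 10.80 and 10.77 in BM control cells (0.84, adjusted p = 0.00168 in limma). Of 5 kept probes of Dlst, a subunit of the 2-oxoglutarate dehydrogenase complex, 2 rose, by 0.76 and 0.75. The other 3 had log2 changes of 0.14 to 0.25 with adjusted p of 0.319 to 0.813 in limma, and the groups overlapped on 2 of them. Of 2 kept probes of Coq4, which acts in ubiquinone synthesis, 1 rose by 0.79, and the other changed by 0.57 with overlapping groups (adjusted p = 0.0559 in limma). Coq8b, a kinase-like protein of the same pathway, rose by 1.09 on its 1 kept probe. On each of the 7 probes of both lists that rose, all Cre arrays lay above all controls, beside 15.8% of all kept probes. These 7 were picked by the test on the same arrays, so this order is no separate support.

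Of 111 probes of mitochondrial ribosomal proteins, 1 rose (0.901%), that of Mrps35 by 0.94, and the median change of the list was 0.21. Of 46 probes of assembly factors, 27 of regulators of mitochondrial biogenesis and 10 of carriers that exchange phosphate, ADP and ATP, none passed in limma. An unadjusted p under 0.05 was found for 2, 4 and 4 of them, and for 5211 of all 19274 kept probes. The smallest p of these 3 lists belonged to Acad9, a complex I assembly factor (log2 change 0.38, adjusted p = 0.127), Polg, the mitochondrial DNA polymerase (1.19, adjusted p = 0.106), and Vdac2, a channel of the outer membrane (0.50, adjusted p = 0.0515). Of 84 probes of cytosolic ribosomal proteins, 5 rose and 1 fell (7.14%), with a median change of 0.03.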

How the data were processed

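RNA of 12 samples was hybridised to 1-colour Illumina BeadChips. Per the file headers, the authors deposited a scanner table that gives every probe's intensity on each array with its detection p-value. Its values show a linear intensity with background subtracted, from -32.7 to 70482, not scaled between arrays, and a detection p-value ranked among 936 negative controls. A second deposited table holds the authors' intensity scaled between arrays, with low values at 24; its method is not stated in the sources used here. The submitters' processing notes name RMA with no role.

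Scanner intensities were corrected and quantile normalised with neqc (offset 16, limma 3.58.1, R 4.3.3). One limma model held 4 group means over 12 arrays with an intensity trend (8 residual degrees of freedom), and p-values were adjusted by Benjamini-Hochberg over 19274 probes in each comparison. The number of arrays limits the precision. The fits were tested on simulated data. Symbols came from the platform annotation: 34885 probes had 1 symbol, 18 had several and 10378 had none here. Sequences came from RefSeq tables (GRCm38.p6).

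The members, the gene lists and the naming rule were chosen with earlier results of these data known. Named were Bcor; for each comparison up to 6 called members each way with groups that did not overlap; the smallest p of each role in each Cre comparison; all kept tissue isoforms of complex IV; up to 4 called members of each other list; and other probes of those genes. For the called members named by the size of their change, the lack of overlap was a condition of being named and is no separate support. Uqcrc1, Ndufs4, Cox6b1, Uqcr10, Cox7a2, Sdhb and Sdhc were added after their values were seen. Deviations from the group means correlated between arrays of the same number in the Cre and control groups (BM pairs 0.121, 0.404 and 0.353; CD34+ pairs 0.349, 0.327 and 0.488), so a fit with marrow and repeat numbers as a block was run beside the main one. Correlations of arrays with unlike numbers are not given here, and no label ties BM arrays of the same number together.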

Additional observations from a re-analysis of the deposited data

How the results depend on the processing

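The members' share of calls lay below that of all kept probes in the main fit and in every alternative run for the Cre effect in CD34+ cells (26), in BM cells (25) and for the difference of effects (25); their median change in BM cells stayed between 0.06 and 0.14. The BM count of 2 became 1 with median scaling, without the detection filter, without an intensity trend and with the repeats of marrow 2 averaged (Ndufs5-ps was lost in each), 5 in the authors' deposited table and with the replicate block by marrow number and repeat, 7 in a fit of only the groups compared, and 14 without both arrays of marrow 4 (an alternative chosen after seeing the data). The 5 calls of the authors' table share none with the main fit. Leaving out each array in turn gave 0 to 7 in BM cells, 0 to 7 in CD34+ cells and 0 to 1 for the difference of effects. In CD34+ cells 3 passed without both marrow 4 arrays, a fit that holds only repeats of marrow 2 in these cells. The difference of effects gave 1 in the authors' table and 1 without both marrow 4 arrays. The replicate block gave 0 calls in CD34+ cells and for the difference. CD34+ control minus BM control gave 37 calls in the authors' table and 37 with 1 probe per gene (80 members tested), against 59; CD34+ Cre minus BM Cre gave 90 with median scaling, 38 in the authors' table and 36 with 1 probe per gene, against 58. Ndufa13 reversed to 0.76 with median scaling (CD34+ control minus BM control), and Ndufs3 to -0.44 in the authors' table (CD34+ Cre minus BM Cre), neither called in the main fit. The cause of these moves was not tested, apart from the fewer probes tested with 1 per gene. No paired analysis was possible because no label ties the BM repeats to a marrow, in the comparisons of CD34+ with BM cells, where repeats 1 and 2 share only a number.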
